A study of Mus musculus with 6 samples.

Results

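The integrin subunits that recognise the tripeptide Arg-Gly-Asp (RGD) in fibronectin, vitronectin and related proteins were followed in mouse lens capsules after cataract surgery. The set was chosen by symbol and holds 8 of the 56940 genes listed in the files: the alpha subunit genes Itga5, Itgav and Itga8, and the beta subunit genes Itgb1, Itgb3, Itgb5, Itgb6 and Itgb8. Of these, 6 passed the filter on low counts, among 15407 genes tested. RNA was sequenced from capsules with their attached lens epithelial cells at 72 h (3 libraries) and at 0 h (3 libraries) after surgical removal of the fiber cell mass. All mice were labelled C57BL/6 and wildtype, and the descriptions of all 6 libraries include RUNX_Cre_N, a tag that no source used here explains. Each library pooled 5 capsules. Per the series design, the first eye of a mouse was operated on 72 h before the second, and both capsules were then taken. The 0 h capsules therefore came from animals whose other eye had already been operated on. The series text calls the libraries of a group biological replicates, so p-values here rest on how pools of capsules differed. Ages and sexes are not given in the sources used here.

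Integrins are surface receptors made of 1 alpha and 1 beta chain that hold cells to the matrix and carry signals in both directions across the membrane. Alpha 5 pairs with beta 1 to form the classical fibronectin receptor, alpha 8 with beta 1 to form a receptor for nephronectin, and alpha v with beta 1, beta 3, beta 5, beta 6 or beta 8. The alpha v receptors bind vitronectin, fibronectin and osteopontin, and several of them, above all those with beta 6 and beta 8, release active TGF-beta from its latent complex by binding an RGD site in the propeptide. In the lens, TGF-beta signalling and a fibronectin-rich matrix are known for their part in the fibrotic response of residual epithelial cells to surgery.

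Counts assigned to genes ranged from 8453450 to 8945397 in 72 h libraries and from 11338820 to 12432688 in 0 h libraries. Of 8 lens epithelial markers, all were tested, 6 were lower at 72 h and none was higher. The lens fiber markers (7 tested) were all lower, with summed levels of 5396 to 9864 CPM (counts scaled to the TMM-adjusted library size) at 72 h and 63330 to 68119 CPM at 0 h. Of 6 photoreceptor markers, all tested, 5 were lower, with sums of 51.1 to 143 CPM at 72 h and 631 to 1541 CPM at 0 h. The part of these shifts in the levels of the members was not tested. Of all tested genes, 21.0% were higher and 17.5% lower. Of 12 macrophage and monocyte markers, 10 were higher and none was lower, 5 of the 10 having entered the test through their 72 h counts alone, with summed levels of 157 to 367 CPM at 72 h and 31.8 to 49.5 CPM at 0 h. Only 2 of 8 neutrophil markers passed the filter, both through their 72 h counts alone. Both were higher, the 8 summed to 20.7 to 44.5 CPM at 72 h and 0.931 to 1.58 CPM at 0 h, and Mpo, Elane and Ly6g had 0 counts in all 6 libraries. Of 6 fibroblast and pericyte markers, all were tested, 3 were higher, each of which entered through its 72 h counts alone, and 2 lower. The 2 of 7 endothelial markers that were tested were not called. The 72 h replicate 3 stood apart, with 3020 CPM of corneal and surface epithelial keratins, where the lowest 72 h library had 3.13 CPM and the 0 h libraries 10.9 to 33.3 CPM. In bulk capsules, fewer cells of a type and less RNA per cell cannot be told apart.

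The promoters of 3 members are shown because they belong to the most abundant beta chains and to the alpha chain with the largest rise, which moved in different directions. RefSeq windows were found for 7 of the 8 members by symbol (build GRCm38.p6, which differs from the GRCm39 build of the files). Each line gives the 250 bases before the annotated start, 5′ to 3′ on the gene's strand, and capitals mark the letters of a motif found on either strand.
Itga5: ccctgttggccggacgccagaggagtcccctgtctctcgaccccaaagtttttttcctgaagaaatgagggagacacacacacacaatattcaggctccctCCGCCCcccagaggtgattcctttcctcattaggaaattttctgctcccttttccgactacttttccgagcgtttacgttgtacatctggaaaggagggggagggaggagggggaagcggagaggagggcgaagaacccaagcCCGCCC
Itgb1: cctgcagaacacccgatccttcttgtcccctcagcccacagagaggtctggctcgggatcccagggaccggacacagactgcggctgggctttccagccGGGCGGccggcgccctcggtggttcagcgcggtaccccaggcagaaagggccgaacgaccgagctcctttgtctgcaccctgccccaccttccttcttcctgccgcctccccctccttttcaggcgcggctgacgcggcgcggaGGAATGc
Itgb5: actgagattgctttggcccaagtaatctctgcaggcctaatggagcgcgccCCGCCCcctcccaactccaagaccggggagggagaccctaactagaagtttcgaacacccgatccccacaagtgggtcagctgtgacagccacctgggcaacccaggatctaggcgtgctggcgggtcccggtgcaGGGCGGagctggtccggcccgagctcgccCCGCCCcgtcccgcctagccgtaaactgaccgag
They lie at chr15:103366792-103367041 on the minus strand for Itga5, chr8:128685404-128685653 on the plus strand for Itgb1 and chr16:33829415-33829664 on the plus strand for Itgb5. The GC box letters GGGCGG occurred 2 times for Itga5, 1 time for Itgb1 and 3 times for Itgb5, and in no other member's window. They are present in 32.7% of 32851 windows of the same length. The TEAD letters GGAATG, which 12.6% of all windows hold, occurred 1 time for Itgb1 and in no other member's window. The AP-1 letters TGANTCA (6.75% of all windows) and the RUNX letters TGTGGT (14.0%) were in none of the members' windows. No motif overlapped another. These matches describe the letters only.

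Among the 8 members, 5 rose at 72 h, 1 fell and 2 were too low to be tested. The background was that 21.0% of the 15407 tested genes rose, 17.5% fell and 38.5% changed in either direction by the same test (edgeR's quasi-likelihood test, two-sided, Benjamini-Hochberg adjusted p under 0.05). The median log2 change was 1.89 over the 6 tested members and -0.02 over all tested genes. Itgb3 counts in this median, among the 5 that rose and in the comparison of libraries that follows. It passed the filter through its 72 h counts alone, so that it could hardly have entered the test without being higher. The other tested members had log2 changes of 3.89, 2.71, 1.06, 0.82 and -0.57. Among the 6 tested members, every 72 h library lay above every 0 h library for 5, against 26.5% of all tested genes, and below for 1, against 26.9%, which makes all 6 without overlap, against 53.5% of tested genes. Itga8, which was not tested, was also lower in every 72 h library.

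Itga5, the alpha chain of the fibronectin receptor, had the largest change of the well-measured members. It stood at 421, 356 and 393 CPM in the 72 h libraries, against 22.1, 31.5 and 25.0 CPM in the 0 h libraries. Every 72 h library lay more than 10-fold above every 0 h library. The log2 change was 3.89 ± 0.15, or 14.9-fold (SE, edgeR adjusted p = 1.25e-07), and 3.28% of all tested genes had a larger rise. Leaving out any 1 library kept it between 3.77 and 4.03.

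Itgav, the alpha chain shared by the vitronectin receptors, rose by less. It stood at 642, 631 and 519 CPM at 72 h, against 280, 262 and 316 CPM at 0 h. The lowest 72 h library, replicate 3, was still above the highest 0 h library. The log2 change was 1.06 ± 0.12, or 2.09-fold (SE, edgeR adjusted p = 8.54e-05).

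Itga8, the alpha chain of the nephronectin receptor, was present in small amounts at 0 h alone. It had 0 counts in each 72 h library, against 22, 14 and 5 counts in the 0 h libraries. The 0 h level was 1.16 ± 0.754 CPM (SD, n = 3), and the 72 h level was at least 9.66-fold lower, taking 3 counts in the 3 libraries together as the floor. It was under the filter. Without any filter it was called lower (edgeR adjusted p = 0.0115 over 27987 genes). That fit gave smaller adjusted p-values than the main fit for every tested member, such as 7.91e-58 against 1.25e-07 for Itga5. Its p-values are therefore not on the scale of the main test. Itga8 also passed the filter without any 1 of the 72 h libraries or without 0 h replicate 3, through its 0 h counts alone, so that a call in the other direction was not possible there (edgeR adjusted p from 0.0201 to 0.0397).

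Itgb1, the beta chain with the widest choice of partners, was the most abundant member per kb of exon at 72 h. It stood at 1922, 1841 and 1656 CPM at 72 h, against 277, 278 and 274 CPM at 0 h. The 0 h libraries differed among themselves by very little, with an SD of 2.10 CPM, and the 72 h libraries by 136 CPM. The log2 change was 2.71 ± 0.10, or 6.55-fold (SE, edgeR adjusted p = 8.1e-08).

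Itgb5, the beta chain of a vitronectin receptor, was the only member called lower. It stood at 403, 383 and 322 CPM at 72 h, against 535, 557 and 556 CPM at 0 h. The groups did not overlap, and the change was modest, at -0.57 ± 0.11 on the log2 scale (SE, edgeR adjusted p = 0.00204). Itgb5 remained one of the abundant members at 72 h.

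Itgb8, the beta chain of an alpha v receptor that activates latent TGF-beta, stood at 65.6, 82.6 and 66.8 CPM at 72 h, against 47.2, 33.9 and 40.5 CPM at 0 h. All 72 h libraries were above all 0 h libraries, by a narrower margin than for Itga5 or Itgb1. The log2 change was 0.82 ± 0.16, or 1.77-fold (SE, edgeR adjusted p = 0.00282).

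Itgb3, the beta chain of the classical vitronectin receptor and of the platelet fibrinogen receptor, stayed rare. It had 49, 23 and 36 counts (5.67, 2.66 and 4.40 CPM) at 72 h, against 10, 2 and 0 counts (0.865, 0.169 and 0 CPM) at 0 h. Its log2 change of 3.60 ± 0.99 (SE, edgeR adjusted p = 0.0168) has the widest error of the tested members. The call was lost without 72 h replicate 1 (adjusted p = 0.0556) or without 0 h replicate 2 (adjusted p = 0.0784), and without 0 h replicate 1, which held 10 of the 12 counts at 0 h, the log2 change was 5.47, and without 0 h replicate 3 it was 3.01. Of 6 platelet and megakaryocyte markers, 2 were tested and both were higher, where 21.0% of all tested genes rose. These were Pf4 and Itga2b, and Itga2b is also among the other integrin subunits tallied below. Pf4, platelet factor 4, stood at 27.0, 15.9 and 9.42 CPM at 72 h, against 0.951, 0.508 and 0.947 CPM at 0 h (log2 change 4.42 ± 0.50, edgeR adjusted p = 9.23e-05), and entered the test through its 72 h counts alone. Itga2b, the alpha chain that pairs with beta 3 on platelets, stood at 9.15, 10.4 and 7.95 CPM at 72 h, against 4.50, 4.49 and 1.81 CPM at 0 h (log2 change 1.35 ± 0.42, edgeR adjusted p = 0.0299). Its call was lost without 72 h replicate 1 or 2 or any 1 of the 0 h libraries (edgeR adjusted p from 0.0595 to 0.0975). Ppbp, under the filter, had 54, 6 and 2 counts at 72 h, against 0 in each 0 h library, while Gp9 and Treml1 had 0 counts in all 6 libraries and Gp1ba had 0 at 72 h. The 6 markers together summed to 17.6 to 42.4 CPM at 72 h and 2.92 to 5.54 CPM at 0 h. Their part in the rise of Itgb3 was not tested.

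Itgb6, the beta chain of an epithelial alpha v receptor, was close to the limit of detection in both groups. It had 0, 3 and 7 counts at 72 h, against 7, 8 and 15 counts at 0 h. The levels overlapped through 72 h replicate 3 alone, the library with the keratins. Itgb6 stood at 0.856 CPM there, beside 0 and 0.347 CPM in the other 72 h libraries and 0.605 to 1.18 CPM at 0 h. Without a filter the gene was not called (log2 change -1.04 ± 1.41, edgeR adjusted p = 0.611). A difference was not detectable at this depth.

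**Figure D1:**
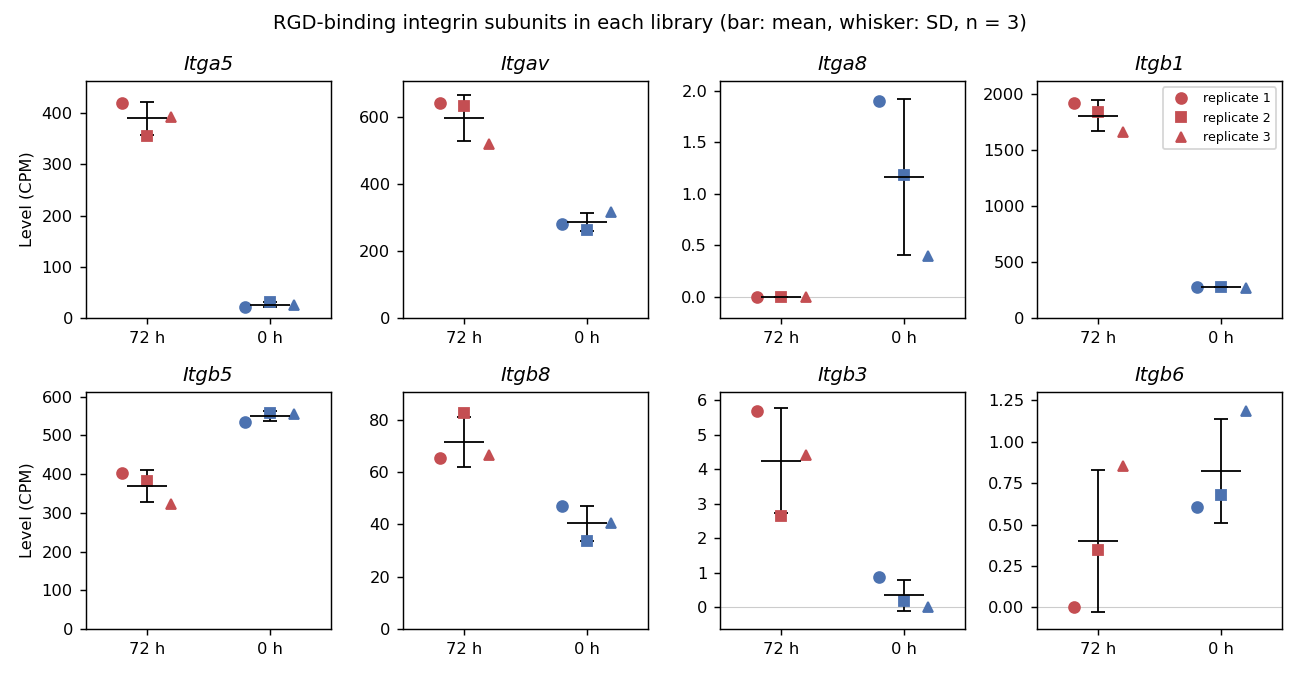
Level of each subunit gene (CPM, linear axes of different height) in the 3 libraries at 72 h (left, red) and the 3 at 0 h (right, blue), with symbols for the replicate number, the mean as a bar and the SD as whiskers. Itga5, Itgav, Itgb1, Itgb8 and Itgb3 are higher at 72 h in every library, Itgb5 and Itga8 are lower in every library, and Itgb6 overlaps.

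Levels of different genes were compared per kb of exon. At 72 h the order, from the highest, was Itgb1 at 443 ± 33.4 CPM per kb, Itgb5 at 104 ± 11.9, Itga5 at 79.0 ± 6.55, Itgav at 55.6 ± 6.37, Itgb8 at 6.48 ± 0.857, Itgb3 at 0.719 ± 0.257, Itgb6 at 0.0564 ± 0.0606 and Itga8 at 0 CPM per kb (SD, n = 3). Itgb6 and Itga8 overlapped there, and no other neighbours did. At 0 h the order was Itgb5 at 155 ± 3.54 CPM per kb, Itgb1 at 67.6 ± 0.513, Itgav at 26.6 ± 2.54, Itga5 at 5.31 ± 0.971, Itgb8 at 3.66 ± 0.604, Itga8 at 0.158 ± 0.102, Itgb6 at 0.116 ± 0.0443 and Itgb3 at 0.0584 ± 0.0777 (SD, n = 3). The last 3 overlapped with their neighbours. The places of Itgb1 and Itgb5 differed between the groups, and so did those of Itga5 and Itgav, the second exchange only with division by exon length. With undivided CPM, an alternative chosen after seeing the data, Itgav lay above Itga5 in every library.

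The make-up of the receptor mRNA shifted accordingly within each library, where scaling between libraries has no effect. Among the 3 alpha chains, Itga5 held 58.7% ± 3.56 of the length-adjusted counts in 72 h libraries, against 16.6% ± 3.46 in 0 h libraries, and Itgav held 41.3% ± 3.56 in 72 h libraries, against 82.9% ± 3.49 in 0 h libraries (SD, n = 3; exact two-sided permutation p = 0.1 each). Among the 5 beta chains that can pair with alpha v, Itgb1 held 80.0% ± 0.595 in 72 h libraries, against 29.9% ± 0.484 in 0 h libraries, and Itgb5 held 18.7% ± 0.648 in 72 h libraries, against 68.4% ± 0.732 in 0 h libraries (SD, n = 3; exact two-sided permutation p = 0.1 each). Itgb8 held 1.17% ± 0.158 in 72 h libraries, against 1.62% ± 0.287 in 0 h libraries, so that its share was not higher although its CPM level was. Itgb3 and Itgb6 each held under 0.2% in every library. Over the 8 shares the adjusted p was 0.1 throughout, which is the smallest that 3 libraries against 3 can give. Itgb1 also pairs with alpha chains outside this set, so these are shares of mRNA and not of receptor pairs.

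**Figure D2:**
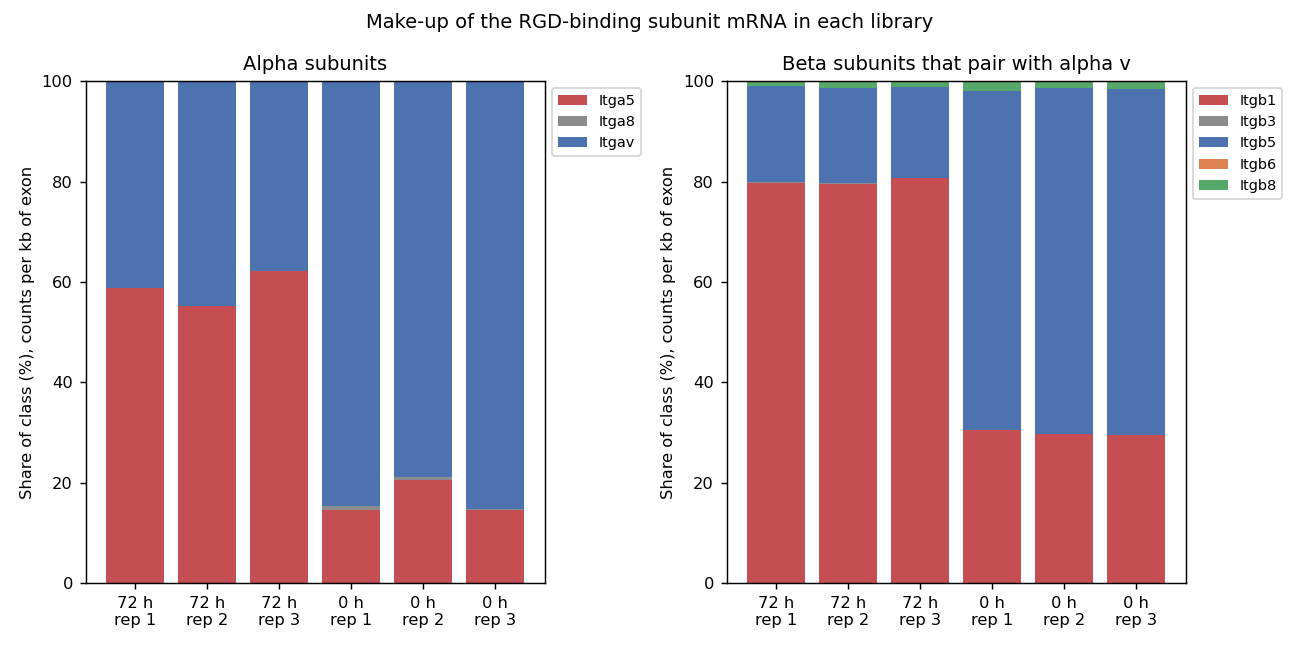
Share (%) of each subunit gene in the summed counts per kb of exon of its class, for the 3 libraries at 72 h and the 3 at 0 h. Left, the alpha chains, in which Itga5 (red) takes 55.1% to 62.3% at 72 h and 14.6% to 20.6% at 0 h. Right, the beta chains, in which Itgb1 (red) takes 79.6% to 80.6% at 72 h and 29.5% to 30.4% at 0 h, and Itgb5 (blue) most of the rest.

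Ratios inside a library do not depend on the other members. The ratio of Itga5 to Itgav per kb was 1.43, 1.23 and 1.65 in the 72 h libraries, against 0.172, 0.261 and 0.172 in the 0 h libraries. The ratio of Itgb1 to Itgb5 per kb was 4.15, 4.18 and 4.48 at 72 h, against 0.451, 0.434 and 0.429 at 0 h. Both ratios lay above 1 in every 72 h library and below 1 in every 0 h library (exact two-sided permutation p = 0.1, the smallest possible). For Itga5 to Itgav the crossing of 1 depended on the measure of length, since with undivided counts the ratio was 0.655, 0.564 and 0.757 at 72 h, against 0.0790, 0.120 and 0.0791 at 0 h. By the longest transcript it was 1.05, 0.901 and 1.21 at 72 h, against 0.126, 0.192 and 0.126 at 0 h. With undivided counts the ratio of Itgb1 to Itgb5 was 4.77, 4.80 and 5.15 at 72 h, against 0.518, 0.498 and 0.492 at 0 h, which crosses 1 as well. The summed level of the 3 alpha chains was 135 ± 9.13 CPM per kb at 72 h and 32.1 ± 2.10 at 0 h, and that of the 5 beta chains 554 ± 45.5 at 72 h and 226 ± 2.79 at 0 h (SD, n = 3).

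Among all 26 integrin subunit genes examined, the 4 highest per kb at 72 h were Itgb1, Itgb5, Itga5 and Itgav, all of them RGD-binding subunits. At 0 h, Itgb5 and Itgb1 led, and the laminin receptor chain Itga6 took the third place, with Itgav in the fifth and Itga5 in the sixth. The same 4 genes led at 72 h by the longest transcript and by undivided CPM, while at 0 h Itga6 then moved to rank 2 by the longest transcript and to rank 1 by undivided CPM. Of the 18 other subunits, 15 were tested, 12 rose and 1 fell, beside 21.0% and 17.5% of all tested genes, and 6 of the 15 passed the filter through their 72 h counts alone. Itga6 fell to 259 ± 6.79 CPM at 72 h, against 560 ± 36.2 CPM at 0 h (SD, n = 3; log2 change -1.11 ± 0.09, edgeR adjusted p = 1.52e-05). Itga7, another laminin receptor chain best known from muscle, stood at 303, 264 and 209 CPM at 72 h, against 2.68, 5.93 and 3.31 CPM at 0 h (log2 change 6.02 ± 0.32, edgeR adjusted p = 8.67e-06). The leukocyte integrin chains Itgam and Itgax were at 45.3 ± 14.9 and 15.9 ± 3.57 CPM at 72 h, and at 0.229 ± 0.217 and 0.168 ± 0.173 CPM at 0 h (SD, n = 3; edgeR adjusted p = 1.39e-05 for Itgam and 4.02e-05 for Itgax). Their log2 changes of 7.59 and 6.47 were 8.37 and 7.39 without 0 h replicate 1, and that of Itgam was 6.99 without 0 h replicate 3. Both passed the filter through their 72 h counts alone. These chains are known from myeloid cells, which also carry several RGD-binding subunits. Per kb, Itgam at 9.01 CPM at 72 h lay below Itgb1 (443), Itgb5 (104), Itga5 (79.0) and Itgav (55.6). It lay above Itgb8 (6.48) and Itgb3 (0.719). Such a ranking does not show how much mRNA of the members myeloid cells carried. The part of these cells in the levels of the members was not tested.

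**Figure D3:**
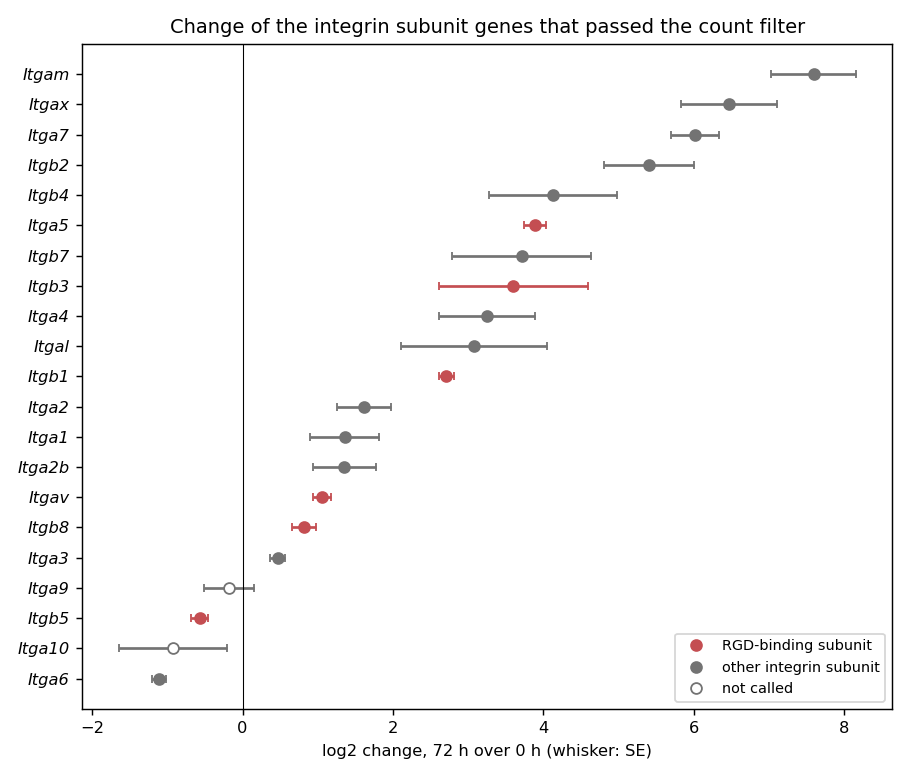
Log2 change (72 h over 0 h, whiskers SE) of the 21 integrin subunit genes that passed the count filter, with RGD-binding subunits in red, the others in grey and open circles for genes not called. Itga5 lies at 3.89 with a narrow error, Itgb3 at 3.60 with a wide one, and Itgb5 at -0.57 is the only red point left of 0.

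Several ligands of these receptors rose by more than any receptor subunit tested, and the ligand of the alpha 8 receptor fell. Of 16 genes for proteins with an RGD site or known to bind these integrins, 13 were tested, 8 rose and 1 fell, where 21.0% of all tested genes rose and 17.5% fell. The median log2 change was 1.84 for the 13 tested ligands and -0.02 for all tested genes. Of these ligands, 3 (Tnc, Spp1 and Edil3) passed the filter through their 72 h counts alone. These 3 could hardly have been tested without being higher, and they count among the 8 that rose and in the median. Fibronectin (Fn1), the ligand of the Itga5 product, stood at 2921, 2963 and 3631 CPM at 72 h, against 21.6, 15.0 and 15.3 CPM at 0 h (log2 change 7.52 ± 0.20, edgeR adjusted p = 1.63e-08). Tenascin C (Tnc) and osteopontin (Spp1), ligands of alpha v receptors, rose by 10.93 ± 0.58 and 10.24 ± 0.79 on the log2 scale (SE, edgeR adjusted p = 7.5e-05 for Tnc and 5.5e-04 for Spp1), and Tnc by 11.77 without 0 h replicate 3. Spp1 varied between libraries, with 757, 925 and 280 CPM at 72 h, against 0.865, 0.423 and 0.316 CPM at 0 h. At 0 h, Tnc had 13, 10 and 42 counts and Spp1 had 10, 5 and 4, so both changes rest on few 0 h counts.

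Among further ligands, Tgfbi, a secreted adhesion protein, rose by 8.37 ± 0.19, the thrombospondin gene Thbs1 by 5.30 ± 0.33 and Edil3, a secreted protein that binds alpha v receptors, by 1.88 ± 0.56 on the log2 scale (SE, edgeR adjusted p = 1.31e-08 for Tgfbi, 3.96e-05 for Thbs1 and 0.0234 for Edil3). The call of Edil3 was lost without 0 h replicate 3 (adjusted p = 0.0699). The bone sialoprotein gene Ibsp and the fibrinogen chains Fga and Fgb had 0 counts in all 6 libraries.

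Nephronectin (Npnt), the ligand of the alpha 8 receptor, was the ligand that fell. It stood at 28.6, 23.1 and 6.48 CPM at 72 h, against 257, 296 and 306 CPM at 0 h (log2 change -3.88 ± 0.57, edgeR adjusted p = 0.00554). Ligand and alpha chain were thus both lower at 72 h in every library. Vitronectin (Vtn), which gives the vitronectin receptors their name, stood at 6.25, 16.4 and 2.57 CPM at 72 h, against 22.7, 35.2 and 22.1 CPM at 0 h. The groups did not overlap, and the gene was not called (log2 change -1.66 ± 0.61, edgeR adjusted p = 0.0725). It was called without 72 h replicate 2 (adjusted p = 0.00198) or 72 h replicate 3 (adjusted p = 0.0275). The same held with DESeq2 (0.00469), with limma voom (0.0116) and with the replicate number as a block (0.00361). The adjusted p ranged from 0.00198 to 0.232 over the alternatives.

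Fibrillin 1 (Fbn1), Mfge8, a protein that bridges dying cells to phagocytes, and the von Willebrand factor gene Vwf were not called, with log2 changes of 0.45 ± 0.42, 0.13 ± 0.12 and -0.48 ± 0.58 (SE, edgeR adjusted p from 0.426 to 0.547). Fbn1 was called higher without 72 h replicate 3 (log2 change 0.80, adjusted p = 0.00235), the library with the keratins, in which it stood at 240 CPM beside 547 and 729 CPM in the other 72 h libraries.

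Latent TGF-beta is the cargo that the beta 6 and beta 8 receptors act on. A list of 9 genes for TGF-beta chains, the Ltbp family and surface carriers was examined. All were tested, 7 rose and none fell, beside 21.0% and 17.5% of all tested genes. The median log2 change was 1.75, beside -0.02 for all tested genes. Lrrc32 and Nrros, among the 7 and in this median, passed the filter through their 72 h counts alone. They could hardly have been tested without being higher. The call of Ltbp4, also among the 7, was lost under 9 of 15 alternatives. The propeptides of Tgfb1 and Tgfb3 carry an RGD site and that of Tgfb2 does not. Tgfb1 and Tgfb3 were also counted among the ligands above, so the tallies of the lists overlap. Tgfb1 stood at 257, 261 and 225 CPM at 72 h, against 71.2, 60.3 and 75.6 CPM at 0 h (log2 change 1.84 ± 0.12, edgeR adjusted p = 3.06e-06). Tgfb3 rose by 1.15 ± 0.22 and Tgfb2 by 1.12 ± 0.11 on the log2 scale (SE, edgeR adjusted p = 0.00284 for Tgfb3 and 3.59e-05 for Tgfb2). Per kb of exon, Tgfb2 had the highest level of the 3 in both groups, at 146 ± 16.6 CPM per kb in 72 h libraries and 67.2 ± 3.67 in 0 h libraries, beside Tgfb1 at 49.1 ± 3.92 CPM per kb in 72 h libraries and 13.7 ± 1.56 in 0 h libraries (SD, n = 3).

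Of the Ltbp family, Ltbp1, a matrix carrier of latent TGF-beta, rose by 1.75 ± 0.18 on the log2 scale (SE, edgeR adjusted p = 8.88e-05). The surface carriers Lrrc32 and Nrros, the second of which is known from myeloid cells, rose by 3.81 ± 0.63 and 2.99 ± 0.71 on the log2 scale but stayed at 8.41 ± 4.29 and 6.82 ± 1.42 CPM at 72 h, against 0.591 ± 0.348 and 0.855 ± 0.801 CPM at 0 h (SD, n = 3; edgeR adjusted p = 0.00101 for Lrrc32 and 0.00787 for Nrros). Both passed the filter through their 72 h counts alone, and the log2 change of Nrros was 3.99 without 0 h replicate 1. Ltbp4 was called (log2 change 1.96 ± 0.66, edgeR adjusted p = 0.0465) on 9.15, 4.97 and 32.2 CPM at 72 h, against 5.10, 3.81 and 2.92 CPM at 0 h. The groups overlapped, and without 72 h replicate 3 the log2 change was 0.85 and the call was lost (adjusted p = 0.144). That call was also lost without 72 h replicate 1 or any 1 of the 0 h libraries (adjusted p from 0.0570 to 0.161). Ltbp3 was not called (log2 change 0.12 ± 0.11, edgeR adjusted p = 0.403). Ltbp2 was not called (0.83 ± 0.39, adjusted p = 0.157) except with DESeq2 (0.0104) or without 72 h replicate 3 (1.16, adjusted p = 4.14e-05).

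**Figure D4:**
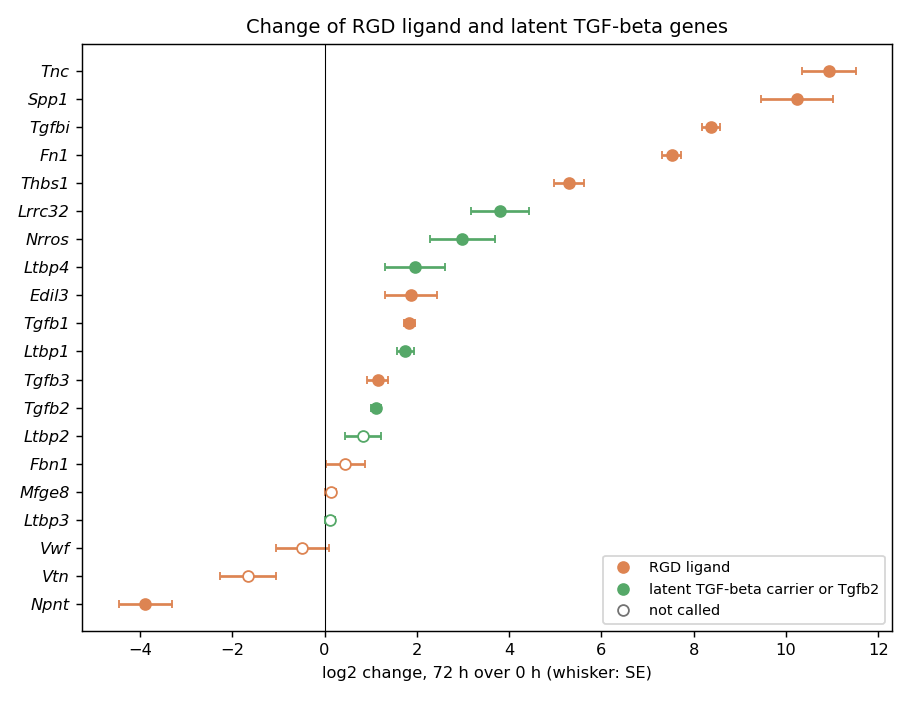
Log2 change (72 h over 0 h, whiskers SE) of the tested genes, with RGD ligands in orange and open circles for genes not called. Green marks Tgfb2, the Ltbp family and the surface carriers of latent TGF-beta. Tnc, Spp1, Tgfbi and Fn1 lie above 7, Vtn and Npnt lie furthest left.

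Inside the cell, integrin tails are switched on by talins and kindlins and linked to actin by adaptors. Of 29 such genes, all were tested, 17 rose, 4 fell and 8 were not called, with a median log2 change of 0.49, where 21.0% of all tested genes rose and 17.5% fell. Fermt1 and Apbb1ip, among those that rose, passed the filter through their 72 h counts alone, and Lims2, among those that fell, through its 0 h counts alone. Vinculin (Vcl), which ties talin to actin, stood at 699, 717 and 697 CPM at 72 h, against 110 to 129 CPM at 0 h (log2 change 2.56 ± 0.10, edgeR adjusted p = 1.26e-07). The kinase gene Src rose by 0.99 ± 0.10 and Fermt3, the kindlin of blood cells, by 2.93 ± 0.37 on the log2 scale (SE, edgeR adjusted p = 4.69e-05 for Src and 2.01e-04 for Fermt3). Fermt3 averaged 12.5 ± 2.17 CPM in 72 h libraries and 1.63 ± 0.351 CPM in 0 h libraries (SD, n = 3). The part of blood cells in its rise was not tested. The talin gene Tln2, the tensin gene Tns2 and Rapgef3, an exchange factor for the integrin activator Rap1, fell, with log2 changes of -0.93 ± 0.12, -1.29 ± 0.18 and -1.13 ± 0.17 (SE, edgeR adjusted p = 2.81e-04 for Tln2, 4.05e-04 for Tns2 and 5.19e-04 for Rapgef3).

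Nearness of profiles was measured by Euclidean distance between centred log2 CPM over the 6 libraries. Genes with no symbol or a provisional one (Gm, Rik or accession type) were left out. The genes nearest to the members were found among the remaining tested genes. They were Ehbp1l1 and Glis3 for Itga5 (distances 0.35 and 0.43), Lmf2 and Asah1 for Itgav (0.12 and 0.13), and Lmna and Clic4 for Itgb1 (0.21 and 0.23). They were Ybx1 and Brpf3 for Itgb5 (0.06 and 0.11), Pcgf5 and Serinc3 for Itgb8 (0.19 and 0.21), and Lcp2 and Crabp2 for Itgb3 (0.80 and 1.17). Such distances are set mainly by the difference between the groups. No member was among the nearest genes of another member.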

How the data were processed

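Each library has 1 deposited file of whole-number read counts by Ensembl identifier, which the authors did not normalise. Per the submitters' processing notes, HISAT2, HTSeq, edgeR and build GRCm39 were used. Versions, annotation release and strand setting were not found in the labels or files, so overlapping or antisense reads may be miscounted. The libraries were made with a stranded low-input total RNA kit, per the labels' protocols. The 5 lines of reads assigned to no gene (41.9% to 51.7% of reads) were left out. Symbols and exon lengths came from GENCODE M21 (GRCm38) by identifier, which matched 51947 of 56940 genes, and no position was taken from it.

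Genes were filtered with filterByExpr (minimum count 10, minimum total 15), scaled by TMM and tested with edgeR 4.0.16 in R 4.3.3 (quasi-likelihood, robust, time as the only term, prior count 0.125), with Benjamini-Hochberg adjustment over 15407 genes and a threshold of 0.05. On simulated counts for this comparison (15407 genes), 82.0% of 50 genes raised 4-fold, 50.0% of 50 raised 2-fold, 66.0% of 50 lowered 4-fold and 18.0% of 50 lowered 2-fold were recovered. Only these genes were changed in the simulation, while 38.5% of tested genes were called in the data. The adjustment was therefore stricter in the simulation, and its rates do not measure recovery in the data. Alternatives used DESeq2 1.42.0, limma 3.58.1, other scalings and filters, and each library left out. Floors of 3 counts cover counting error only. Levels per kb used the union of exons.

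Members and lists were chosen with earlier results of these data known. Named were all members, all ligand and latent TGF-beta genes, and, from the other integrins and the adaptors, the 3 called genes with the smallest p in each direction. Pf4 and Itga2b were added after their values were seen. Protein sequences were not used here. Same-numbered libraries did not deviate together (correlations of -0.046 to 0.077), and the numbers were not used as a block in the main test. Whether 72 h and 0 h pools shared mice is not settled by these correlations.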

Additional observations from a re-analysis of the deposited data

How the results depend on the processing

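The calls of Itga5, Itgav, Itgb1, Itgb5 and Itgb8 kept their direction and their side of the threshold under all 15 alternatives, and no named gene with a test reversed. The members called higher numbered 4 to 5, and those called lower 1 to 2, when any 1 library was left out. The count of members called lower was 2 with no filter. The added gene in each case was Itga8, which then entered the test through its 0 h counts alone. Over all genes, leaving out a library gave 2511 to 3646 higher and 1877 to 3265 lower genes. The replicate block gave 5 higher and 1 lower member, with 2921 higher and 2507 lower genes over all. It changed the calls of Vtn (adjusted p = 0.00361) and Ltbp4 (adjusted p = 0.107) among the named genes. Same-numbered libraries correlated by -0.046, 0.077 and -0.008 in their deviations, and differently numbered ones by -0.095 to 0.101. Such correlations cannot show whether 72 h and 0 h pools shared mice, and the main test took no account of shared mice. The call of Ltbp4 was also lost with upper quartile scaling, no filter or limma voom.

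Shares of a class differ with the measure of length. The difference, 72 h minus 0 h, was 42.1 percentage points for Itga5 by exon union, 38.3 by the longest transcript and 31.2 with no division by length. For Itgav it was -41.6, -37.9 by the longest transcript and -30.8 with no division. With no division it was 48.4 for Itgb1, 0.149 for Itgb3, -47.0 for Itgb5, -0.0758 for Itgb6 and -1.49 for Itgb8. By the longest transcript and with no division, both chosen after seeing the data, the mean ratio of Itga5 to Itgav in 72 h libraries was 1.05 and 0.659, against 1.43 by exon union, so that its place above 1 rests on the measure of length. That of Itgb1 to Itgb5 was 4.91 with no division. The log2 change of Itgb3 was 4.40 with limma voom. Other scalings moved the median of all genes by at most 0.09 on the log2 scale. Itga8, with 41 counts in all, and Itgb6 are limited by depth.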
